A study of Homo sapiens with 5 samples.

Results

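Reh, a line of pro-B lymphoblastic leukaemia, was compared with the Hodgkin lymphoma lines L1236, L428 and L591 by the position of their DNase I peaks on chromosomes 1 to 22. Members were chosen by overlap alone, and a peak counted as shared when it had at least 1 bp in common with a peak of another list. Of the 27502 autosomal Reh peaks, 13264 (48.2%, exact Clopper-Pearson 95% interval 47.6 to 48.8) shared no base with any Hodgkin peak and are called Reh-only. Overlapping peaks of the 4 lists were joined into 57990 merged regions, of which 2523 (4.35%, 4.19 to 4.52) held a peak of each of the 3 Hodgkin lines and none of Reh, and these are called Hodgkin-common. The intervals cover counting error only.

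The lists came from a DNase-seq series of 5 lines, each with 1 library, whose lists held 109692 peaks in all. The Namalwa list, from Burkitt lymphoma, was the shortest of the 5 and was left out of both classes. All lines had been used at passage 7 with no treatment stated other than the digestion of nuclei, at 6 U/ml DNase I for Reh, L1236 and L428 and 12 U/ml for L591. Namalwa nuclei had received 12 U/ml, a higher concentration than those of Reh. The 3 Hodgkin lines served as replicates of their group. Reh stood alone, so an exact permutation of the 4 lists cannot give a p below 0.25, and no difference between Reh and the Hodgkin group could pass a test.

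DNase I cuts where nucleosomes have been moved aside, so its cut sites mark promoters, enhancers and insulators that are open in a cell. Pro-B cells are early B-lineage cells that are still rearranging their immunoglobulin heavy chain genes and that depend on regulators such as PAX5 and EBF1. The malignant cells of Hodgkin lymphoma also descend from B cells but have shut down many B cell genes, and are known for active NF-kB, JAK-STAT and AP-1 signalling. Whether Reh and the Hodgkin lines show open chromatin at markers of their labelled cell type was not analysed here, because no hg18 gene annotation or sequence was used. The rule for naming genes asked for such an annotation, and the genes mentioned below depart from it. They were picked, after the values had been seen, for being known in lymphoid cells, from general knowledge of where they lie, with the chromosome alone checked in the RefSeq table of GRCh38.p14. They serve to place a stretch of the genome, no peak was assigned to a gene, and how often such genes occur in other stretches was not counted.

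The 4 autosomal lists were of similar length, with 24971 peaks in L1236, 22758 in L428, 26030 in L591 and 27502 in Reh. They covered 9.62 Mb in L1236, 8.45 Mb in L428, 13.9 Mb in L591 and 11.01 Mb in Reh. The median peak was 310 bp wide in L1236, 320 bp in L428 and Reh and 450 bp in L591. The lowest score per bp, where the score is the authors' peak area, was 3.67 in Reh and 12.0 in L1236, so the lists may not have been held to 1 threshold. Read depth is unknown, and scores are used below only as percentiles within a list, where 100 is the highest.

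Reh-only peaks ranked low in the Reh list. Their median score percentile was 33.1, with quartiles at 15.4 and 54.0. Reh peaks that overlapped 1 Hodgkin list had a median percentile of 47.3, those that overlapped 2 lists 63.6, and those that overlapped all 3 lists 85.1. The groups overlapped widely, since the Reh-only peaks reached percentile 99.7 and the peaks shared with all 3 lists went down to 0.175. Width followed the same order, with a median of 250 bp for Reh-only peaks, 300 bp and 370 bp for peaks shared with 1 and 2 lists, and 560 bp for those shared with all 3. Because the score is an area, width and percentile are not independent. A wider peak can also meet the 1 bp overlap more easily, and how far this made the order was not tested. The median score per bp also rose along this order, from 5.31 to 5.76, 6.76 and 9.77. Peaks of 1 library are not replicates, and no test was attached to these orders.

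When the Reh list was split by score into 10 bins of nearly equal size (deciles), 79.4% of the 2816 peaks of decile 1, the lowest, had no Hodgkin counterpart and 2.27% were shared with all 3 lines. The share without a counterpart fell with each successive decile, to 57.1% in decile 5, 27.8% in decile 8 and 7.31% in decile 10. In decile 10, 76.0% of 2751 peaks were shared with all 3 Hodgkin lines, and 201 were Reh-only. Between the extremes, decile 5 held 533 peaks of 1 Hodgkin list, 419 of 2 and 226 of all 3. Over the whole list, peaks that met exactly 1 Hodgkin list numbered 4194 (15.2% of the Reh list), those of 2 lists 4431 (16.1%) and those of all 3 lists 5613 (20.4%).

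**Figure D1:**
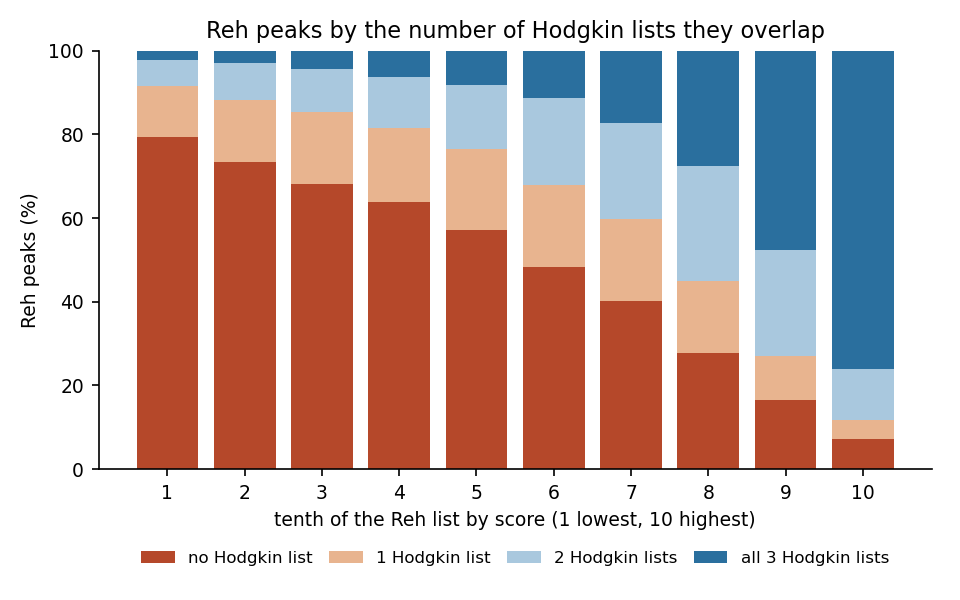
Autosomal Reh peaks in deciles of the Reh list by score (horizontal axis, 1 lowest and 10 highest) and the percentage in each decile that overlapped no, 1, 2 or all 3 Hodgkin lists (vertical axis, stacked bars). The share with no Hodgkin peak goes down from 79.4% in decile 1 to 7.31% in decile 10, where 76.0% overlap all 3 lists.

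L591 shared the most peaks with Reh. It was digested at the higher DNase I concentration, had the longest of the Hodgkin lists and the widest peaks, and covered the most sequence. All of these can affect an overlap of 1 bp. Their part in the sharing was not tested, and in 1 library they cannot be told apart from the line. L591 overlapped 44.1% of Reh peaks, whereas L428 overlapped 35.8% and L1236 28.8%. Among Reh peaks with a single Hodgkin partner, 2356 were partnered by L591 alone, 1062 by L1236 alone and 776 by L428 alone. Without L591, which leaves only lines digested at 6 U/ml, 15620 Reh peaks (56.8%) had no Hodgkin counterpart. Without L1236 the number was 14326 (52.1%), and without L428 it was 14040 (51.1%).

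Each Hodgkin list also held peaks that none of the other 3 lists had. In L1236, 45.6% of peaks were found in L1236 alone, close to the 48.2% of Reh, whereas the share was 27.8% in L591 and 22.8% in L428. A high share of private peaks was therefore not limited to Reh, though among the Hodgkin lists only L1236 had it. The L1236 list lacks a mark, qcTrimmed, that the other lists carry. The private peaks of L1236 had a median percentile of 39.3, above the 33.1 of Reh, and those of L428 and L591 had 28.9. Seen from the other side, 68.3% of L1236 peaks had no Reh counterpart, compared with 55.6% in L428 and 56.8% in L591.

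Hodgkin-common regions ranked above the middle of the Hodgkin lists. Their median percentile was highest in the L1236 list, at 64.6, and was 60.5 in that of L591 and 60.8 in that of L428. The 5307 regions that held a peak in all 4 lines had medians of 70.9 in L1236, 79.2 in L428 and 85.0 in L591. Presence of a Reh peak thus went with a percentile 6.30 points higher in L1236, and with larger differences of 18.4 points in L428 and 24.5 points in L591. The 3 lines shared the lowest position in the class almost evenly, with L1236 ranking lowest at 33.1% of the regions, L428 at 33.6% and L591 at 33.3%. L1236 ranked highest at 39.6% of them, more often than L591 (30.7%) or L428 (29.7%).

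The Hodgkin lines agreed less on the order of strength of these regions than of those that Reh shared. Across the 2523 Hodgkin-common regions, Spearman's rho of the percentile was 0.405 for L428 with L591, 0.2499 for L1236 with L428 and 0.2504 for L1236 with L591. Across the 5307 regions that Reh also had, rho was 0.693 for L428 with L591, 0.485 for L1236 with L591 and 0.438 for L1236 with L428. These values describe regions of the same libraries and carry no p-value. Above percentile 90 stood 392 Hodgkin-common regions in L1236, 297 in L428 and 282 in L591, and 56 (2.22%) did so in all 3 lists.

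**Figure D2:**
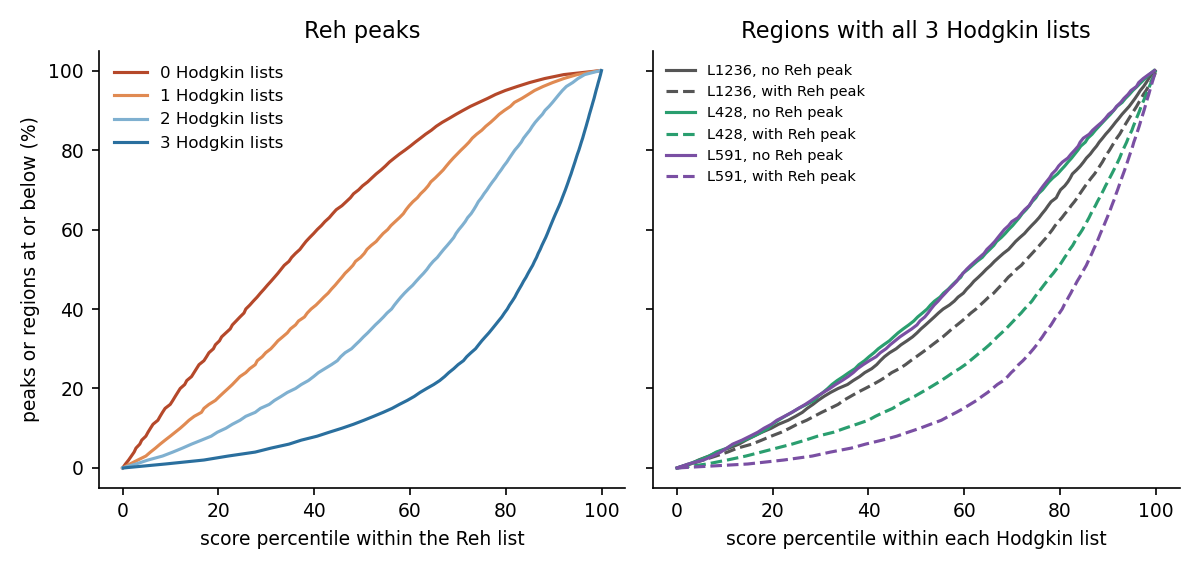
Cumulative percentage of peaks or regions (vertical axis) at or below each score percentile within a list (horizontal axis). Left, Reh peaks by the number of Hodgkin lists they overlap, with medians of 33.1, 47.3, 63.6 and 85.1 for 0, 1, 2 and 3 lists; right, regions of all 3 Hodgkin lines without (solid) and with (dashed) a Reh peak, where the distance between the lines of a pair is smallest in L1236.

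Of the 7830 regions that all 3 Hodgkin lines had in common, Reh lacked 32.2% (31.2 to 33.3). Reh had a peak at 38.8% of the regions of exactly 2 Hodgkin lines and at 12.6% of those of exactly 1. The share that Reh lacked fell with the strength of the region. Ordered by the lowest percentile over the 3 Hodgkin lists, the weakest decile of these regions lacked Reh at 50.6%, decile 5 at 34.0% and the strongest decile at 8.81%, or 69 of 783 regions. The decline mirrors the one seen in the Reh list, so that in both directions the strongest peaks were most often common to Reh and the Hodgkin lines.

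Presence in all 3 lists is a strict requirement, and the size of the Hodgkin-common class depends on it. With a peak in at least 2 Hodgkin lists sufficing, 8449 regions qualified. With L1236 left out, 5878 regions held a peak of both remaining lines and none of Reh, with L428 left out 4071, and with L591 left out 3629. Among the 4 patterns in which exactly 1 line lacked a peak, Reh lacked 2523 regions, L1236 2769, L428 736 and L591 253. Reh was thus not the line most often missing.

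The distances of the 2 classes to the other side differed. A Reh-only peak lay a median of 9970 bp from the nearest Hodgkin peak, with quartiles at 1710 and 32185 bp. A Hodgkin-common region lay a median of 32750 bp from the nearest Reh peak, with quartiles at 8365 and 103085 bp. The Hodgkin side has 3 lists and the Reh side 1, so shorter distances to a Hodgkin peak follow in part from their number. Within 1000 bp of the other side were 19.9% of Reh-only peaks and 6.34% of Hodgkin-common regions. Beyond 100000 bp were 881 Reh-only peaks (6.64%) and 648 Hodgkin-common regions (25.7%). Reh-only peaks more than 50000 bp from any Hodgkin peak had a median percentile of 31.0, close to that of the whole class. Hodgkin-common regions at that distance from Reh had 64.2 in L1236, 62.2 in L428 and 62.6 in L591.

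Few members sat at the edge of the rule. A gap of at most 100 bp separated 510 Reh-only peaks (3.84%) from a Hodgkin peak, and 39 of them touched one without sharing a base. Just on the other side of the threshold, 401 Reh peaks shared at most 100 bp with Hodgkin peaks. The median percentile was 29.3 for the former and 26.1 for the latter. Of the Hodgkin-common regions, 19 lay within 100 bp of a Reh peak.

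**Figure D3:**
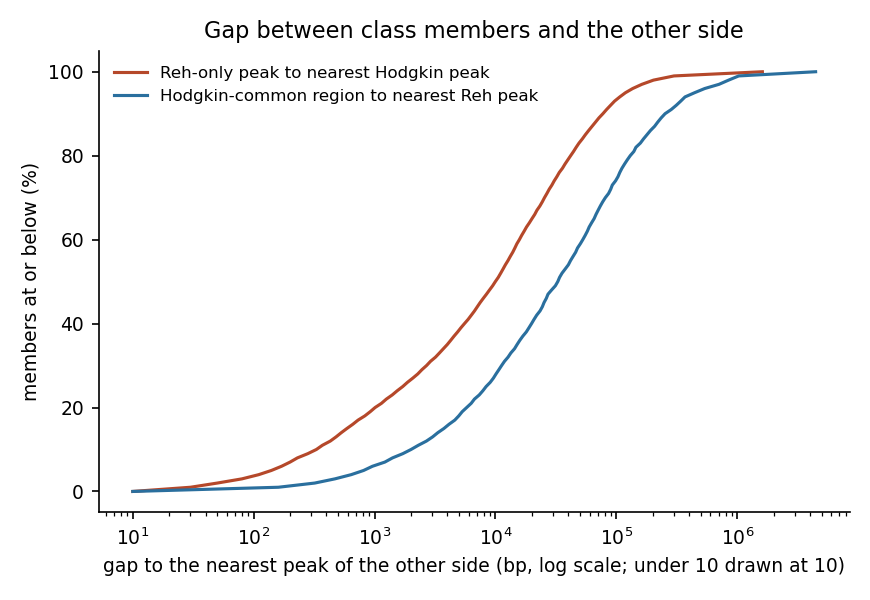
Cumulative percentage of class members (vertical axis) by the gap to the nearest peak of the other side in bp (horizontal axis, log scale, gaps under 10 bp drawn at 10). The median gap is 9970 bp for Reh-only peaks and 32750 bp for Hodgkin-common regions.

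The strongest Reh-only peak was 3060 bp wide and lay on chromosome 8, from 144668221 to 144671280 in hg18, with a Reh percentile of 99.7 and 1440 bp from the nearest Hodgkin peak. The 20 leading members ranged down to percentile 97.9 and were broad, with a median width of 1615 bp. They were spread over 11 chromosomes. Chromosome 1 held a member at 154727841 to 154730030, at percentile 99.4 and 2060 bp from a Hodgkin peak, and another at 159760191 to 159762140, at percentile 98.0. Chromosome 16 held members at 1261341 to 1262560 (percentile 98.9) and 84343161 to 84344810 (98.2). On chromosome 17, peaks at 52983471 to 52985030 (98.8) and 53037431 to 53038940 (98.4) lay close to each other, and the latter stood 690 bp from a Hodgkin peak, the shortest gap of the 20. Chromosome 10 held a member at 134084861 to 134087020, at percentile 98.9 with the nearest Hodgkin peak 85480 bp away. Members on chromosome 7 at 1031211 to 1033120 and 100556011 to 100557510, on chromosome 5 at 177480111 to 177481690, and on chromosome 22 at 23152841 to 23154290 all stood at percentile 98.3. The last of the 20 lay on chromosome 14 at 23905571 to 23907030, at percentile 97.9. Of these 20 peaks, 19 also overlapped a Namalwa peak, against 4.70% of all Reh-only peaks and 0 of the 20 leading Hodgkin-common regions. The Namalwa list is short, and how often shared Reh peaks of such percentiles overlapped it was not counted.

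The strongest Hodgkin-common regions were also broad, but stood further from the other side. The 20 leading members had a median width of 1320 bp and stood at percentile 93.7 or higher in all 3 Hodgkin lists. Of these 20, 7 were on chromosome 2, which held 13.1% of all Hodgkin-common regions. The median gap to the nearest Reh peak was 78835 bp, against 8650 bp from the 20 leading Reh-only peaks to a Hodgkin peak. The most isolated was a narrow region of 450 bp on chromosome 4 at 12250911 to 12251360, which had no Reh peak within 986950 bp. L1236 ranked it at percentile 99.7, L591 at 99.1 and L428 at 93.9. A region on chromosome 5 at 5078571 to 5079880 stood at 97.8 in L591, 97.5 in L428 and 95.7 in L1236, with Reh 287460 bp away. A region on chromosome 12 at 24883321 to 24884100 reached 99.6 in L428 and 99.2 in L591 but 95.7 in L1236.

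Some of these regions fell in stretches with genes known from Hodgkin lymphoma or from B cells. On chromosome 17 a region at 35276611 to 35277850 reached percentile 97.7 in L428, 96.1 in L1236 and 95.7 in L591, and stood only 1260 bp from a Reh peak. This stretch holds IKZF3, which encodes the lymphoid transcription factor Aiolos. On chromosome 8, regions at 129068721 to 129070300 and 129073931 to 129075260 both stood at 93.7 or higher in all 3 lists, in the stretch of PVT1 downstream of MYC. Further leading regions lay on chromosome 2 at 44913641 to 44915080 and 65399651 to 65401500, on chromosome 6 (158989651 to 158991170) and on chromosome 9 (1865261 to 1866580).

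Reh-only peaks were crowded in part into a small number of stretches. Of 2620 windows of 1 Mb with any peak, 1726 held a Reh-only peak and 1135 a Hodgkin-common region. In 162 windows there were 20 or more Reh-only peaks, and these windows held 40.4% of the class. For comparison, the 14238 Reh peaks that were shared with a Hodgkin line reached 20 in 138 windows, which held 28.7% of them. The 100 fullest windows held 30.1% of Reh-only peaks and 23.04% of shared Reh peaks. Crowding of peaks private to a Hodgkin list was not counted. No window held more than 17 Hodgkin-common regions. The class sizes differ about 5.26-fold, so the counts per window of the 2 classes are not on 1 scale.

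Runs of successive merged regions were also counted. Reh-only regions made up 22.9% of merged regions and Hodgkin-common regions 4.35%, so that long runs are to be met less often in the latter. Runs of 5 or more neighbours, all of them Reh-only with no region of another kind between them, took in 31.8% of the class. For Hodgkin-common regions the share was 0.198%, or a single run, and 81.6% stood with no neighbour of their own class. The longest Reh-only run had 42 regions within 64.7 kb on chromosome 1 at 141841991 to 141906700, with a median percentile of 35.5. A run of 38 regions on chromosome 19 at 41464511 to 41491960 was denser, filling 27.5 kb, and stronger, with a median percentile of 73.9. A run of 37 regions on chromosome 17 extended from 33369391 to 33638620. On chromosome 7 there was one of 29 regions between 1754241 and 1949970, and on chromosome 3 one of 28 between 13032571 and 13360470. The run on chromosome 17 was of weak peaks, at a median percentile of 25.7, whereas that on chromosome 3 had 59.4.

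The single long Hodgkin-common run had 5 regions over 171 kb on chromosome 6 at 32515271 to 32686150. This stretch holds the HLA-DR genes of the major histocompatibility complex, among them HLA-DRA and HLA-DRB1, which present peptides to helper T cells and are also expressed by normal B cells. A run of 4 regions on chromosome 2 between 201698421 and 201704270 was in the stretch of CFLAR, an inhibitor of caspase activation by death receptors. Another lay further along that chromosome, between 231236991 and 231242290. A run on chromosome 3 between 123302301 and 123306490 was in the stretch of CD86, a costimulatory ligand for T cells. These last 3 runs were short, at 5.85 kb, 5.30 kb and 4.19 kb.

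The fullest Reh-only window was on chromosome 1 from 16 to 17 Mb, with 113 Reh-only peaks among 150 Reh peaks, where L1236 had 44, L428 31 and L591 31. With classes taken anew from the upper 50% of each list it held 45. It then came after the window from 86 to 87 Mb of chromosome 8 (55) and that from 41 to 42 Mb of chromosome 19 (48). Chromosome 1 also held windows from 141 to 142, 142 to 143 and 143 to 144 Mb with 107, 69 and 79 members, which follow a stretch of 20.3 Mb in which no list had a peak. In the first of these, Reh had 124 peaks, L1236 14, L428 2 and L591 11. Chromosome 2 from 91 to 92 Mb held 92 members, again at the edge of a stretch without peaks, where L1236 had 61 peaks. Chromosome 8 from 86 to 87 Mb held 75 members at a median spacing of 845 bp, and 41 more Reh peaks there were shared with a Hodgkin line. Near chromosome ends, the window from 1 to 2 Mb held 86 members on chromosome 7 and 72 on chromosome 1, and that from 139 to 140 Mb on chromosome 9 held 63. In all these windows the median percentile lay between 20.7 and 54.0. The window from 41 to 42 Mb on chromosome 19 was the exception among the 10 fullest, with 62 members at a median percentile of 72.4. A position beside stretches without peaks was not particular to Reh-only peaks, since shared Reh peaks and L1236 peaks were also found there. Peaks of L428 and L591 and Hodgkin-common regions lay there less often. Within 2 Mb of the longest such stretch of each chromosome lay 5.70% of Reh-only peaks, 5.48% of shared Reh peaks and 2.62% of Hodgkin-common regions. Of whole lists, 8.54% of L1236, 3.94% of L428 and 3.69% of L591 peaks lay there. The L1236 list lacks a mark, qcTrimmed, that the other lists carry, and its part in this was not tested. The window from 90 to 91 Mb of chromosome 3 held 89 peaks of L1236 and none of another list. Whether reads in such crowded stretches map to repeated sequence was not tested.

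In windows of 5 Mb, the fifth in rank was chromosome 22 from 20 to 25 Mb, singled out after its values were seen, with 151 Reh-only peaks among 189 Reh peaks and a median percentile of 42.5. L1236 had 37 peaks there, L428 49 and L591 50. This stretch holds the immunoglobulin lambda light chain locus with VPREB1 and IGLL1, which encode the surrogate light chain that pro-B and pre-B cells carry before a light chain gene has been rearranged. It held 5 Hodgkin-common regions. The 10 fullest 5 Mb windows of Reh-only peaks held from 4 to 12 of them, so this number was ordinary among such windows.

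The window with the most Hodgkin-common regions, from 138 to 139 Mb of chromosome 6, holds TNFAIP3, an inhibitor of NF-kB signalling. Its 17 members had a median lowest percentile of 43.4, and Reh had 5 peaks there, of which 1 was Reh-only. The Hodgkin lines were far from equal in this window, with 170 peaks in L428, 89 in L591 and 23 in L1236. Its lead was lost in the upper 50% of each list, where it held 7 members. There the window from 55 to 56 Mb of chromosome 19 held 16 (11 with whole lists) and that from 129 to 130 Mb of chromosome 8 held 13. The class was taken anew from the cut lists, where weaker Reh peaks no longer count, so a window can gain members. Chromosome 8 from 129 to 130 Mb held 16 members, the stretch of PVT1 already named. It was the strongest of these windows, with a median lowest percentile of 80.8, and Reh had no peak in it while L1236 had 55, L428 40 and L591 54.

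The other leading Hodgkin-common windows all held Reh peaks as well. Chromosome 3 from 123 to 124 Mb, with CD86, held 13 members, 5 Reh-only peaks and 12 shared Reh peaks. Chromosome 2 from 64 to 65 Mb, with PELI1 and SERTAD2, also held 13, beside 19 Reh peaks. Chromosome 17 from 35 to 36 Mb, with IKZF3 and the chemokine receptor gene CCR7, had 13 as well, but 44 Reh peaks, of which 15 were Reh-only. There were 12 members from 111 to 112 Mb of chromosome 2, with the cell death gene BCL2L11, where Reh had 16 peaks. As many lay from 142 to 143 Mb of chromosome 5, with the glucocorticoid receptor gene NR3C1 and 10 Reh peaks, and from 92 to 93 Mb of chromosome 7, with the cell cycle kinase gene CDK6 and 13 Reh peaks. Chromosome 1 from 210 to 211 Mb, with the AP-1 family genes ATF3 and BATF3, held 11 members, 1 of 5 windows with that number, and 14 Reh peaks. There L1236 had 79 peaks against 31 in L428 and 33 in L591.

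Few windows with a member of 1 class lacked any peak of the other side. Windows without a member of either class were not part of this count. Of the 1135 windows with a Hodgkin-common region, 80 had no Reh peak at all. Of the 1726 windows with a Reh-only peak, 31 had no Hodgkin peak. After the chromosome 8 window, those without Reh held 4 Hodgkin-common regions at most, among them chromosome 9 from 1 to 2 Mb with a median lowest percentile of 84.6. Windows with Reh-only peaks and no Hodgkin peak held 5 at most, between 25 and 26 Mb of chromosome 15 and between 46 and 47 Mb of chromosome 22. Both classes occurred together in 894 windows. Over the 2620 windows, Spearman's rho between the counts of the 2 classes was 0.270, and that between Reh-only and shared Reh peaks 0.685. Counts in a window share library and copy number, and the coefficients are given as a description.

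**Figure D4:**
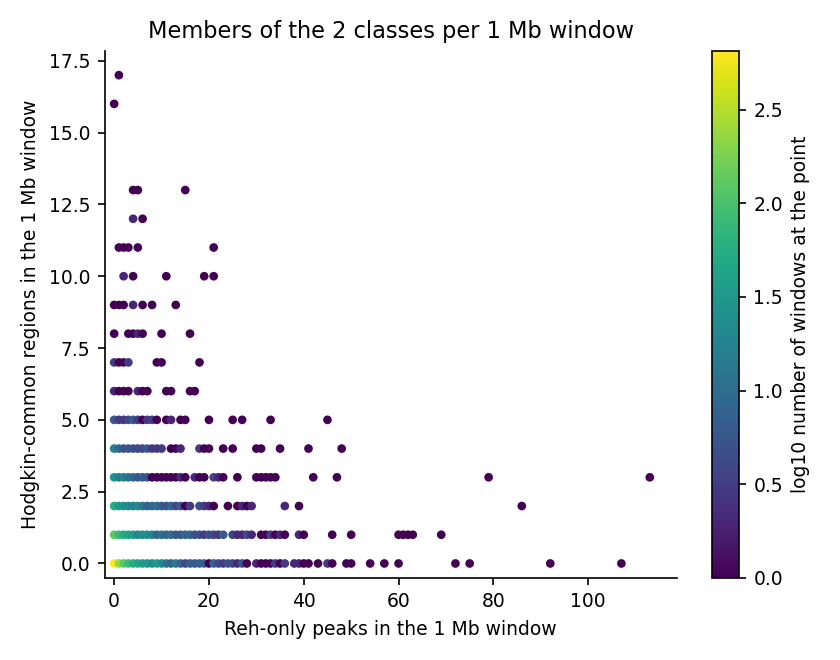
Number of Reh-only peaks (horizontal axis) and of Hodgkin-common regions (vertical axis) in each 1 Mb window with any peak, coloured by the log10 number of windows at a point. The fullest window of either class held few members of the other, with 113 Reh-only peaks beside 3 Hodgkin-common regions at the far right and 17 Hodgkin-common regions beside 1 Reh-only peak at the top.

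The classes were unevenly spread over the autosomes. Chromosome 22 held 3.78% of Reh-only peaks and 1.31% of Hodgkin-common regions, a ratio of 2.89. Of the 22 autosomes, 13 held a larger share of Reh-only peaks than of Hodgkin-common regions. The largest ratio, 3.38, was on chromosome 13, with few members (1.88% and 0.555%), and the largest excess in points on chromosome 1 (15.6% and 10.5%). Among the chromosomes named by the rule, ratios above 1 were also seen on chromosome 19 (6.31% and 2.85%, ratio 2.21), chromosome 21 (1.82% and 0.912%, 1.99), chromosome 7 (8.90% and 5.11%, 1.74) and chromosome 16 (5.21% and 3.37%, 1.55). Hodgkin-common regions were more frequent on chromosome 6 (7.81% and 2.93%), chromosome 2 (13.1% and 5.38%), chromosome 5 (7.49% and 3.16%), chromosome 3 (6.90% and 4.36%) and chromosome 12 (5.83% and 3.84%). On each of the 10 chromosomes named by the rule the sign of the difference stayed the same with the upper 50% of each list and with each Hodgkin line left out, but its size moved by more than 1.5 times on those given next. On chromosome 12 the difference was -1.99 percentage points and shrank to -0.825 without L428. On chromosome 6 it was -4.88 points, and -7.51 without L1236. On chromosome 7 it was 3.78 points, with 2.25 left without L591 and 2.22 in the upper 50%. On chromosome 16 it went from 1.84 to 1.16 points without L591, and on chromosome 21 from 0.905 to 0.591 without L1236.

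The chromosomes with an excess of Reh-only peaks did not all owe it to the same part of the Reh list. On chromosome 19, 43.6% of Reh peaks were Reh-only, below the 48.2% of all autosomes, and its share was higher among shared Reh peaks (7.59%) than among Reh-only ones (6.31%). There only 13.4% of the regions of all 3 Hodgkin lines lacked Reh, the lowest value of the 22 autosomes. On chromosomes 22 and 21, in contrast, 62.5% and 64.3% of Reh peaks were Reh-only, and on chromosome 7 57.3%. Chromosome 6 was lowest, at 32.8%. Reh lacked 44.1% of the regions common to the Hodgkin lines on chromosome 2 and 40.6% on chromosomes 5 and 6. Chromosome 21 was close to these, at 40.4%. The highest value was 46.8% on chromosome 18, and chromosome 8 had 42.0%, though neither is among the named chromosomes.

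These 10 chromosomes had been picked by the share of whole lists, so their whole-list values below describe that choice. Reh lay outside the range of the 3 Hodgkin lists on 15 of 22 autosomes (68.2%), above on 8 and below on 7, with no test able to pass. Chromosome 22 held 2.92% of Reh peaks, and 0.985% of L1236, 1.64% of L428 and 1.67% of L591 peaks, so that Reh was above all of them (p = 0.25 in a two-sided exact permutation test, which cannot go lower here). On chromosome 21 Reh had 1.36%, with 0.917% in L1236, 1.23% in L428 and 0.941% in L591. On chromosome 6 Reh was lowest with 4.30%, but the Hodgkin lines ranged from 4.98% in L1236 to 8.48% in L428, so that the difference of -2.60 points from their mean was smaller than their range (exact permutation p = 0.5). Copy number and accessibility both affect such shares and cannot be told apart here.

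**Figure D5:**
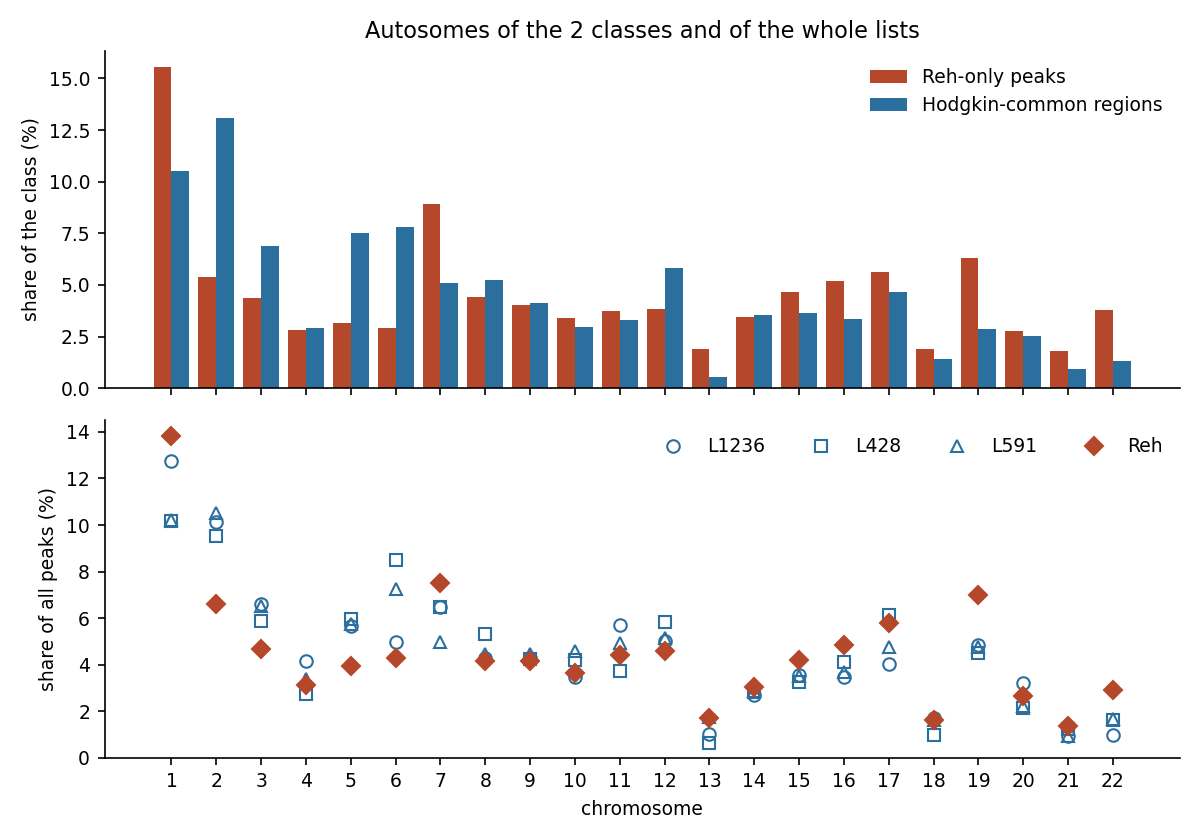
Top, share of Reh-only peaks and of Hodgkin-common regions on each autosome (vertical axis, % of the class); bottom, share of all peaks of each list (vertical axis, %; 1 point per library). Reh-only peaks have the larger share on 13 of the 22 autosomes, with the widest distances in the top panel on chromosome 1 in their favour and on chromosome 2 in favour of Hodgkin-common regions.

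Reh-only peaks were more frequent towards chromosome ends, taken as the outermost peaks. Such a peak can lie well inside a chromosome, and its distance from the true end was not checked. Within 5 Mb of the outermost peak of any list, there were 21.05% of Reh-only peaks (20.4 to 21.8) and 8.52% of Hodgkin-common regions (7.46 to 9.68). Reh peaks shared with a Hodgkin line were intermediate at 12.8%, and regions of all 4 lines had 9.87%. Over whole lists the share was 16.8% in Reh, 8.59% in L1236, 11.2% in L428 and 9.98% in L591, so Reh stood above all 3 Hodgkin lists. With classes taken anew from the upper 50% of each list, 21.5% of Reh-only peaks and 9.86% of Hodgkin-common regions lay there.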

How the data were processed

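DNase-seq peak lists of Reh and the Hodgkin lines L1236, L428 and L591 were analysed. The submitters' processing notes name Bowtie 1.00 and hg18. Per the file columns, fragments of 146 bp and bins of 10 bp were used. The signal that the authors deposited is a peak area, with no scaling to depth stated. Caller, threshold and read depth: not given in the sources used here. The L1236 list lacks a mark, qcTrimmed, that the other lists carry.

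Peaks of chromosomes X, Y and M were left out. Positions are 1-based, in hg18. Reh peaks were matched to each Hodgkin list, and overlapping peaks of the 4 lists were joined. Percentiles were taken within each autosomal list with ties averaged; a region has the highest percentile of a line's peaks in it. Named are the 20 leading members of each class (Reh percentile, or lowest over the 3 Hodgkin lists), the 10 fullest windows of 1 Mb, the 5 longest runs, and the 5 chromosomes on each side where Reh lay furthest, by ratio, from the mean of Hodgkin lists that it lay outside of. A leading Hodgkin-common region and its run are not reported here. Windows of 5 Mb were an alternative. The rule allowed genes only with an hg18 annotation, so the genes mentioned depart from it and were chosen after values were seen. Members and measures were chosen with earlier results of these data known. Python 3.11.15, numpy 2.4.6, pandas 2.3.3, scipy 1.17.1 and matplotlib 3.10.9 were used. Class counts were checked on simulated lists and by a separate route on the real ones.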

Additional observations from a re-analysis of the deposited data

Results flagged for a closer look

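Data outside both classes were also looked at. The Namalwa list was the shortest of the series, which limits the overlaps that any class can have with it. Namalwa was also digested at a higher DNase I concentration (12 U/ml) than Reh (6 U/ml). Whether this affected the overlaps was not tested. In the Namalwa list, which entered neither class, 623 of the 13264 Reh-only peaks (4.70%) had an overlapping peak, and these had a median Reh percentile of 80.2 against 31.3 for the remainder. Of the 2523 Hodgkin-common regions, 5 overlapped a Namalwa peak (0.198%), whereas 31.5% of the Reh peaks shared with a Hodgkin line did. On chromosome X, which was left out, 91 of 423 Reh peaks had no Hodgkin peak, a smaller share than the 48.2% of the autosomes. There 49 regions held a peak of all 3 Hodgkin lines and none of Reh. With chromosome X included, Reh-only peaks made up 47.8% of Reh peaks. Hodgkin-common regions then made up 4.34% of merged regions, against 4.35% without it.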

How the results depend on the processing

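With the upper 50% of each list or with a Hodgkin line left out, which were the settings tried for chromosomes, no difference between the classes on the 10 named chromosomes was reversed. For the upper 50% and for equal lists, the lists were cut by score before overlaps were taken. A member there may overlap a weaker peak that was left out, so these classes are not subsets of the main ones. Reh-only peaks made up 49.9% of Reh peaks with an overlap of 50% of the shorter peak required, 51.4% with centres within 250 bp, 44.9% when a gap of up to 200 bp counted as shared, 53.4% with peaks set to 200 bp, 43.7% with lists of equal length (22758 peaks), 40.4% (5558 peaks) in the upper 50% of each list and 46.0% with Namalwa peaks also required to be absent. Hodgkin-common regions made up 4.11% of merged regions with centres within 250 bp, 4.78% with the gap of 200 bp, 3.94% with peaks set to 200 bp, 4.60% with equal lists, 3.82% (1075 regions) in the upper 50%, and 14.6% (8449 regions) with at least 2 Hodgkin lists. With each Hodgkin line left out in turn, Reh-only peaks ranged from 14040 to 15620 (51.1% to 56.8%) and Hodgkin-common regions from 3629 to 5878 (6.96% to 12.5%), since fewer lists then have to be empty or filled. By score per bp the median percentile was 34.4 for Reh-only peaks and 63.5 for Hodgkin-common regions in L591, and by width it was 57.7 in L428 and 57.6 in L591. The fullest window changed place. At 5 Mb it held 281 Reh-only peaks from 140 Mb of chromosome 1, and 28 Hodgkin-common regions from 125 Mb of chromosome 8. In the upper 50% it held 55 Reh-only peaks from 86 Mb of chromosome 8, and 16 Hodgkin-common regions from 55 Mb of chromosome 19. The share near chromosome ends, tried under other settings after the data had been seen, ranged from 20.1% to 21.1% for Reh-only peaks and from 7.64% to 9.20% for Hodgkin-common regions with a line left out, and was 9.86% for the latter in the upper 50%. No paired analysis was possible because Reh has 1 library, numbers only name the samples in accession order, and the groups share fewer than 2 of them. Gene, promoter and motif comparisons were not run, since no hg18 annotation or sequence was used. Depth is unknown, so a missing peak cannot be told from one below an unstated threshold.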
